A study of Mus musculus with 12 samples.

Results

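The 10 genes Exosc1 to Exosc10 encode the core and the nuclear subunit of the RNA exosome, and their transcripts were followed here through nuclei and cytoplasms of growing mouse oocytes with and without MTR4. They were taken by gene symbol from a table of 23235 gene entries, and all 10 were found. All 10 had at least 1 FPKM (a unit that corrects fragment numbers for transcript length and library size) in at least 3 of the 12 libraries, the condition that 13157 genes met to be tested. The rule used no measured value.

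The RNA exosome is the main complex that degrades and trims RNA from its 3′ end. Of its subunits, 6 form a ring, through which RNA is threaded, and a cap of RNA-binding subunits sits on that ring. The ring and cap have lost catalytic activity in mammals, and the work is done by attached nucleases, DIS3 or DIS3L at the bottom of the barrel and EXOSC10 beside the cap. In the nucleus the helicase MTR4, whose gene is listed in this table as Skiv2l2, unwinds RNA and passes it to the exosome, while the SKI complex does so in the cytoplasm. A growing oocyte makes and stores RNA for the embryo, and its large nucleus can be removed by hand.

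Oocytes of mice at day 14, either wild type (WT) or Mtr4-null, were divided by micromanipulation, and total RNA of 10 nuclei or 10 cytoplasms per sample was sequenced after removal of ribosomal RNA. The 4 groups (WT nucleus, WT cytoplasm, Mtr4-null nucleus and Mtr4-null cytoplasm) had 3 libraries each, although the design text speaks of duplicates. The sources used here do not give the strain, the way the Mtr4 allele was removed or any Cre line. Whether separate mice gave the 3 libraries is not stated, and p-values therefore measure a spread between libraries that may be technical.

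Among the nuclei, 1 library went against its label and 2 others stood apart. Skiv2l2 measured 21.1, 19.4 and 20.2 FPKM across the WT cytoplasms, 1.04, 0.32 and 0.70 FPKM across the Mtr4-null cytoplasms and 6.06, 2.45 and 5.37 FPKM across the WT nuclei. Of the nuclei labelled Mtr4-null, replicate 1 measured 7.98 FPKM, more than any WT nucleus and so against its label, while replicates 2 and 3 measured 0.18 and 1.12 FPKM. Replicate 3 also stood apart, because its summed level of 13 oocyte markers was 12815 FPKM, level with the 12199 to 12808 FPKM of the WT cytoplasms, against 3818 to 7581 FPKM in the WT nuclei. Scarna2, which encodes a guide RNA of Cajal bodies, held between 58.0% and 81.7% of all FPKM in the 6 nuclei and at most 5.13% in the cytoplasms. WT nucleus replicate 2 stood apart in 9 markers of theca and stroma, which summed to 37.0 FPKM there, led by the collagen genes Col1a1, Col1a2 and Col3a1, against 5.37 and 1.18 FPKM in the other WT nuclei and at most 2.82 FPKM in the other groups. All 13 oocyte markers averaged at least 1 FPKM in every group, and the sum of 14 granulosa cell markers, the cells that surround an oocyte, lay between 7.57 and 41.2 FPKM, with Nr5a2 the highest of them in all 12 libraries. Depth estimated from the smallest values was 0.129 to 0.398 times that of WT cytoplasm replicate 1 in the nuclei and 0.521 to 1.56 times in the cytoplasms, but for the nucleus labelled Mtr4-null replicate 1 it was 0.147 by direct comparison and 0.441 by way of WT cytoplasm replicate 2. FPKM is relative to the fragments of a library, so less RNA of a gene per oocyte and more RNA of other genes cannot be told apart.

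In WT cytoplasm every subunit was expressed at a middling to high level. Exosc10, the nuclear exonuclease, had the highest mean, 41.9 ± 2.59 FPKM (SD, n = 3), followed by the ring subunits Exosc8 (38.0 ± 3.63 FPKM), Exosc4 (34.9 ± 2.50 FPKM), Exosc5 (34.3 ± 3.24 FPKM) and Exosc7 (29.4 ± 2.26 FPKM). The lower members were the cap subunit Exosc1 (17.5 ± 1.04 FPKM), the ring subunits Exosc9 (17.0 ± 3.45 FPKM) and Exosc6 (12.9 ± 4.22 FPKM), and the cap subunits Exosc3 (12.3 ± 5.26 FPKM) and Exosc2 (9.97 ± 2.25 FPKM). The 3 cap subunits were thus all in the lower part of the order. Between neighbours in this order, the libraries were apart at 2 of 9 steps, from Exosc5 to Exosc7 and from Exosc7 to Exosc1, and overlapped at the other 7. In each of the other groups all 9 steps overlapped, and FPKM compares genes per length of transcript. Among the 13157 genes tested, the members lay between percentile 50.8 (Exosc2) and percentile 83.1 (Exosc10) of mean FPKM in WT cytoplasm.

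The attached nucleases differed in level from the core. Dis3, the nuclear catalytic subunit, measured 2.44, 3.05 and 2.52 FPKM across the WT cytoplasms, below every core subunit there, while Dis3l, the cytoplasmic catalytic subunit, measured 72.0, 80.2 and 78.9 FPKM, above all of them. Mphosph6, a protein that binds the nuclear exosome, was the most abundant gene of the list of catalytic subunits and cofactors, at 243 to 307 FPKM. These values describe RNA and not protein.

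**Figure D1:**
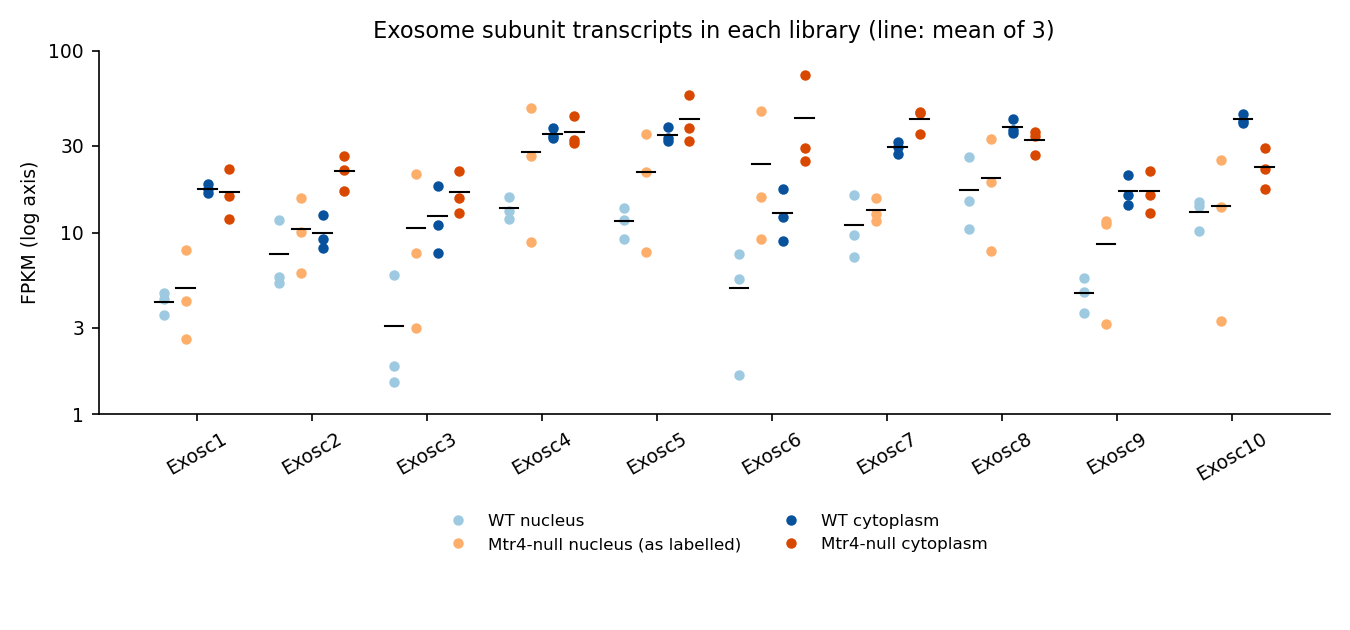
FPKM on a log axis (vertical) of each exosome subunit (horizontal) in each of the 12 libraries, with 1 point per library, colours for the 4 groups and a line at each group mean. WT cytoplasms lie above WT nuclei for 9 subunits, and the nuclei labelled Mtr4-null spread widely, as for Exosc3 (2.98 to 21.1 FPKM).

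Within WT oocytes, 8 of the 10 subunits were lower in the nucleus than in the cytoplasm in FPKM (limma, Benjamini-Hochberg adjusted p below 0.05), against 45.0% of all genes tested that were called lower. The exceptions were Exosc2 and Exosc6. The median difference of the members was -1.45 on the log2(FPKM + 1) scale, against -0.90 over all genes tested. In FPKM, 9 members had every WT nucleus below every WT cytoplasm, and 59.4% of all genes did.

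Among the cap subunits, Exosc1 had the largest difference. It measured 3.54, 4.65 and 4.33 FPKM across the WT nuclei versus 16.4, 18.5 and 17.5 FPKM across the WT cytoplasms, with no overlap. It fell by 1.84 ± 0.37 (log2, SE; limma, adjusted p = 0.0016) in the nucleus, lower in 3 of 3 nuclei. Exosc3 measured 1.51, 1.83 and 5.82 FPKM across the WT nuclei versus 18.0, 11.0 and 7.75 FPKM across the cytoplasms, again apart, with a difference of -1.79 ± 0.56 (limma, adjusted p = 0.015). The cap subunit Exosc2 did not share this. Its WT nuclei held 5.31, 5.73 and 11.8 FPKM and its WT cytoplasms 12.5, 8.22 and 9.19 FPKM, so that the groups overlapped, with a difference of -0.41 ± 0.39 (limma, adjusted p = 0.38).

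The ring subunits called lower in the WT nucleus were Exosc4 (log2 difference -1.30), Exosc5 (-1.51), Exosc7 (-1.39), Exosc8 (-1.19) and Exosc9 (-1.67), with limma adjusted p-values from 0.0030 to 0.030. Exosc9, a ring subunit without activity of its own, measured 4.73, 3.59 and 5.59 FPKM across the WT nuclei versus 20.8, 16.1 and 14.1 FPKM across the WT cytoplasms. Exosc6 stood at 1.65, 5.56 and 7.60 FPKM against 17.4, 9.01 and 12.2 FPKM. These groups were apart too, but the nuclei spread widely and the difference of -1.34 ± 0.58 missed the threshold (limma, adjusted p = 0.060), although it passed in a fit of the WT libraries alone (adjusted p = 0.032). Exosc10 measured 14.7, 10.2 and 14.1 FPKM across the WT nuclei versus 44.9, 40.9 and 40.0 FPKM across the WT cytoplasms, and differed by -1.63 ± 0.50 (limma, adjusted p = 0.013). The protein is known for its work in the nucleus.

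These counts depended on how the libraries were scaled. Relative to the median of all genes, 9 members were still lower in the nucleus, by between 0.30 (Exosc8) and 0.94 (Exosc1) on the log2 scale, while Exosc2 was higher by 0.49. With median-of-ratios scaling, quantile normalization or rescaling to the sum without the 100 most abundant genes, Exosc1 alone of the 10 was called, at -0.84, -1.16 and -0.99, and Exosc2 turned positive, at 0.59, 0.36 and 0.44 with no call. Under these settings 29.2%, 24.8% and 31.4% of all genes tested were called in either direction, beside 57.1% with FPKM as deposited. Exosc8 reached 0.012 with quantile normalization. With FPKM as deposited, 5 members were called without WT nucleus replicate 1, 4 without WT nucleus replicate 2 and 5 without WT cytoplasm replicate 1. In these settings 49.9%, 44.2% and 43.5% of all genes were called in either direction. Values centred on genes of like GC content, a setting chosen after the data were seen, called 1 member and, in either direction, 42.9% of the genes with a GC value.

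**Figure D2:**
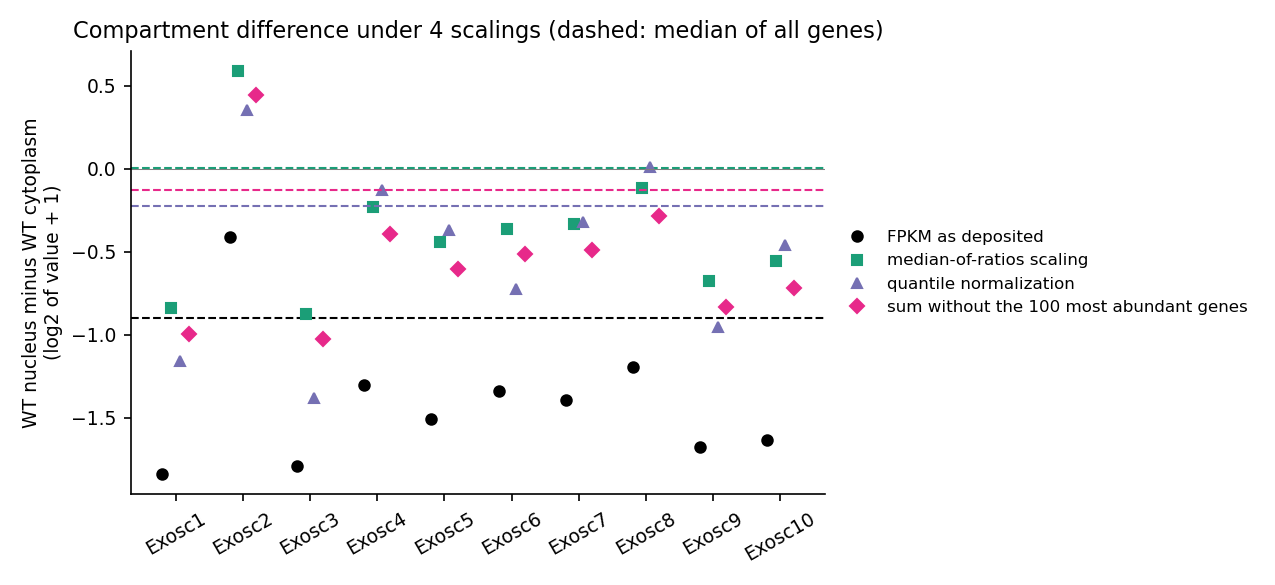
Difference between WT nucleus and WT cytoplasm (vertical, log2 of value + 1) for each subunit (horizontal) under 4 scalings, shown by colour and marker, with dashed lines at the median of all genes under each scaling. With FPKM as deposited all 10 members are below 0, and under the other 3 scalings Exosc2 lies above 0 and Exosc1 is among the lowest.

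The wider pathway in WT oocytes is read against the same 45.0% of all genes called lower. Of its genes, 3 of the 5 catalytic subunits and cofactors were called lower in the nucleus (Dis3l, Mphosph6 and Skiv2l2), as were 3 of the 4 SKI complex genes (Ttc37, Wdr61 and Hbs1l). The list called SKI complex here holds cytoplasmic partners of the exosome and is wider than the complex itself, since it includes Hbs1l. Among 15 genes whose products link MTR4 to its RNAs, 11 were lower (Papd5, Papd7, Zcchc8, Rbm7, Pabpn1, Zc3h3, Zc3h18, Ncbp2, Nvl, Gltscr2 and Nol9). Zcchc7, the zinc finger subunit of the TRAMP complex, was higher in the nucleus, at 15.1, 10.9 and 25.5 FPKM against 6.74, 6.48 and 6.37 FPKM in the cytoplasm, a difference of 1.19 ± 0.48 (limma, adjusted p = 0.043). Among 9 exonucleases outside the exosome, 6 were lower (Xrn1, Xrn2, Parn, Rexo1, Rexo2 and Rexo4). The medians of these lists were -1.50, -1.45, -1.28 and -0.996 for catalytic subunits and cofactors, SKI complex, adaptors and other exonucleases, beside -1.45 for the core subunits and -0.90 for all genes tested.

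In the Mtr4-null oocytes the same comparison called 2 of 10 subunits lower in the nucleus, against 28.1% of all genes tested. Exosc1 measured 4.19, 2.61 and 7.99 FPKM across the nuclei labelled Mtr4-null versus 22.4, 11.8 and 15.9 FPKM across the Mtr4-null cytoplasms, a difference of -1.64 ± 0.37 (limma, adjusted p = 0.024). Exosc7, a ring subunit, was at 15.5, 11.5 and 12.7 FPKM against 34.9, 45.2 and 46.0 FPKM, a difference of -1.60 ± 0.32 (limma, adjusted p = 0.011). Both genes had nuclei and cytoplasms apart, as did Exosc2 and Exosc9, and 35.8% of all genes tested were apart in this direction. The median of the members was -1.01, against -0.82 for all genes.

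Both calls rested on the shared estimate of the spread and on the scaling. Shares of all genes in this paragraph count calls in either direction. A fit of the Mtr4-null libraries alone called 0 of 10, beside 0.935% of all genes (111 genes higher and 12 lower in the nucleus). In that fit 3 subunits had an unadjusted p below 0.05, beside 4150 of 13157 genes. The 3 other scalings also called 0, beside 3.70% to 5.03%. With 4 groups, 1 subunit was called without replicate 1 of the nuclei labelled Mtr4-null or without replicate 1 or 2 of the Mtr4-null cytoplasms. Without replicate 3 of those cytoplasms 0 were called. In these settings 1.35% to 2.52% of all genes were called in either direction, in place of 32.2%. Without replicate 2 of the nuclei labelled Mtr4-null 3 were called, beside 4.47% of all genes. Without replicate 3 of the nuclei labelled Mtr4-null 8 were called, beside 64.8% of all genes, and without replicates 1 and 3 of them together, which leaves 1 nuclear library assumed to vary like the other groups, 6 were called, beside 64.4%.

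Among the adaptors, 7 of 15 were called lower in the nucleus (Zcchc8, Rbm7, Zc3h18, Srrt, Ncbp2, Gltscr2 and Nol9) of the Mtr4-null oocytes, beside 1 of 5 catalytic subunits and cofactors (Mphosph6), 2 of 4 SKI complex genes (Wdr61 and Hbs1l) and 1 of 9 other exonucleases (Rexo1), against the 28.1% of all genes called lower. Isg20, an exonuclease induced by interferon, was the exception: it measured 4.32, 8.18 and 4.99 FPKM across the nuclei labelled Mtr4-null versus 0.37 and 0.44 FPKM in cytoplasm replicates 1 and 3, with replicate 2 listed at 0, a difference of 2.41 ± 0.43 (limma, adjusted p = 0.0057).

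In the cytoplasm, the summed level of the 10 subunits overlapped between the genotypes, while the levels of single subunits lay apart in both directions. The sum was 267.8, 239.2 and 237.2 FPKM across the WT cytoplasms against 259.2, 345.9 and 264.0 FPKM across the Mtr4-null cytoplasms. With all 4 groups in 1 limma fit, 0 of 10 subunits passed the threshold, against 1.88% of all genes tested that were called. In that fit 2 subunits had an unadjusted p below 0.05, beside 1663 of 13157 genes. A fit of the cytoplasms alone, which does not take the wider spread of the nuclei, called Exosc2 and Exosc7 higher and Exosc10 lower, 3 of 10 members against 23.2% of all genes. Exosc2, Exosc6 and Exosc7 had every Mtr4-null cytoplasm above every WT cytoplasm and Exosc10 every one below, and the groups were apart for 43.9% of all genes tested. The share of members apart, 4 of 10, was near that background. The summed granulosa cell markers also differed with the genotype, at 34.2 to 41.2 FPKM across the WT and 20.7 to 27.1 FPKM across the Mtr4-null cytoplasms, and 4 of the 14 markers averaged at least 1 FPKM in the WT and 3 in the Mtr4-null cytoplasms. Most of that difference was Nr5a2, with means of 28.5 and 18.6 FPKM, and of the 14 markers 7 had a higher and 7 a lower mean in the Mtr4-null cytoplasms. Their part in the results was not tested.

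Exosc10 is the member with nuclease activity. It measured 44.9, 40.9 and 40.0 FPKM across the WT cytoplasms versus 29.2, 17.4 and 22.3 FPKM across the Mtr4-null cytoplasms. All 3 Mtr4-null libraries were below all WT libraries. Its place in the order of means was 1 in WT and 6 in Mtr4-null cytoplasm, and it overlapped its neighbours in both orders. The difference was -0.87 ± 0.50 with all 4 groups (limma, adjusted p = 0.54) and -0.87 ± 0.19 with the cytoplasms alone (limma, adjusted p = 0.024).

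Exosc2, a cap subunit that binds RNA, had the lowest mean of the family in WT cytoplasm, with 12.5, 8.22 and 9.19 FPKM in the 3 libraries. Its Mtr4-null cytoplasms had 17.0, 26.4 and 22.1 FPKM, with no overlap. The difference was 1.06 ± 0.39 with 4 groups (limma, adjusted p = 0.22) and 1.06 ± 0.22 with the cytoplasms alone (limma, adjusted p = 0.021).

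Exosc7, in the ring, measured 31.5, 27.0 and 29.6 FPKM across the WT cytoplasms versus 34.9, 45.2 and 46.0 FPKM across the Mtr4-null cytoplasms. The groups were apart, but the difference was smaller, 0.50 ± 0.32 with 4 groups (limma, adjusted p = 0.63) and 0.50 ± 0.13 with the cytoplasms alone (limma, adjusted p = 0.044).

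Exosc6, also in the ring, had the largest difference and the largest spread. It measured 17.4, 9.01 and 12.2 FPKM across the WT cytoplasms versus 24.6, 74.0 and 29.3 FPKM across the Mtr4-null cytoplasms, so replicate 2 of the latter was far above the other 2 libraries. The difference of 1.53 ± 0.58 did not pass with 4 groups (limma, adjusted p = 0.24) nor, at 1.53 ± 0.45, with the cytoplasms alone (limma, adjusted p = 0.057), and without Mtr4-null replicate 2 it was 1.05.

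The other 6 subunits had log2 differences between -0.24 (Exosc8) and 0.46 (Exosc3) in the cytoplasm, none of them called in either fit, and their groups overlapped. Exosc4, for example, measured 37.8, 33.2 and 33.8 FPKM across the WT cytoplasms versus 32.1, 43.7 and 31.2 FPKM across the Mtr4-null ones, and Exosc9 20.8, 16.1 and 14.1 FPKM versus 16.0, 21.9 and 12.8 FPKM. The median of the 10 differences was 0.13, beside 0 for all genes. Calls in the fit of the cytoplasms alone depended on single libraries: leaving out each of the 6 in turn gave 0 to 3 calls, beside 8.54% to 23.7% of all genes. Exosc10 was not called without any 1 of the 3 WT libraries or Mtr4-null replicate 3, Exosc2 without WT replicate 2 or 3 or Mtr4-null replicate 3, and Exosc7 was called only without Mtr4-null replicate 1.

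**Figure D3:**
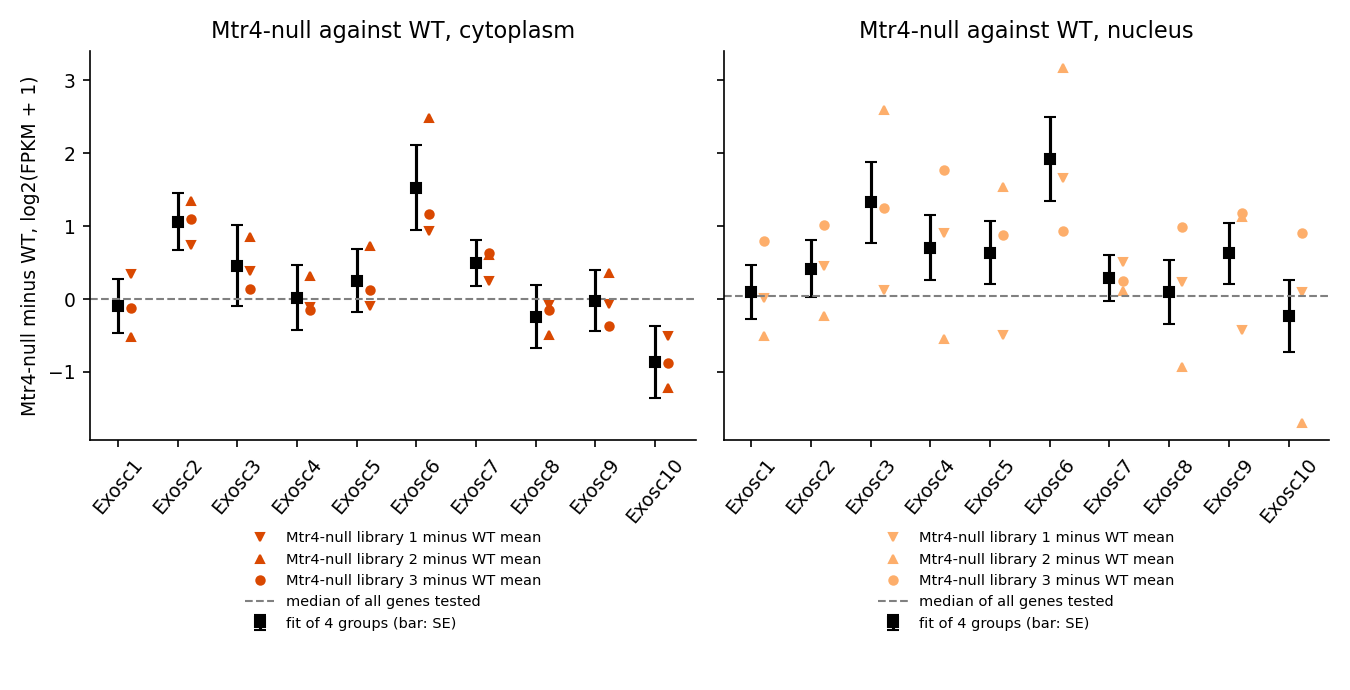
Mtr4-null minus WT on the log2(FPKM + 1) scale (vertical) for each subunit (horizontal) in the cytoplasm and in the nucleus, with black squares for the fit (bars: SE), coloured points for each Mtr4-null library against the WT mean, and a dashed line at the median of all genes. In the cytoplasm the 3 libraries are all above 0 for Exosc2, Exosc3, Exosc6 and Exosc7 and all below 0 for Exosc8 and Exosc10, and in the nucleus they lie on both sides of 0 for 7 subunits.

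The makeup of the family can be read as the share of each subunit in the summed FPKM of the 10, which does not depend on a scaling factor of a library. Exosc10 made up 16.9% ± 0.17 (SD, n = 3) of the family in the WT cytoplasms and 8.24% ± 3.12 in the Mtr4-null cytoplasms, where single libraries held 11.2%, 5.02% and 8.46%. Exosc6 made up 5.13% ± 1.36 and 14.0% ± 6.45, and Exosc2 3.99% ± 0.62 and 7.53% ± 0.92. Exosc7 had 11.8% ± 0.60 and 14.7% ± 2.41. The shares of Exosc2, Exosc6 and Exosc7 were higher in every Mtr4-null than in every WT cytoplasm, and those of Exosc4, Exosc8 and Exosc10 lower. A share is defined only within the family, so no background over all genes stands beside this count. Between the nuclei of the 2 genotypes, the shares of all 10 subunits overlapped. Since shares sum to 100%, a high share of Exosc6 lowers the others: the share of Exosc4 was 14.1% ± 0.18 and 12.3% ± 0.42, while its FPKM overlapped.

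**Figure D4:**
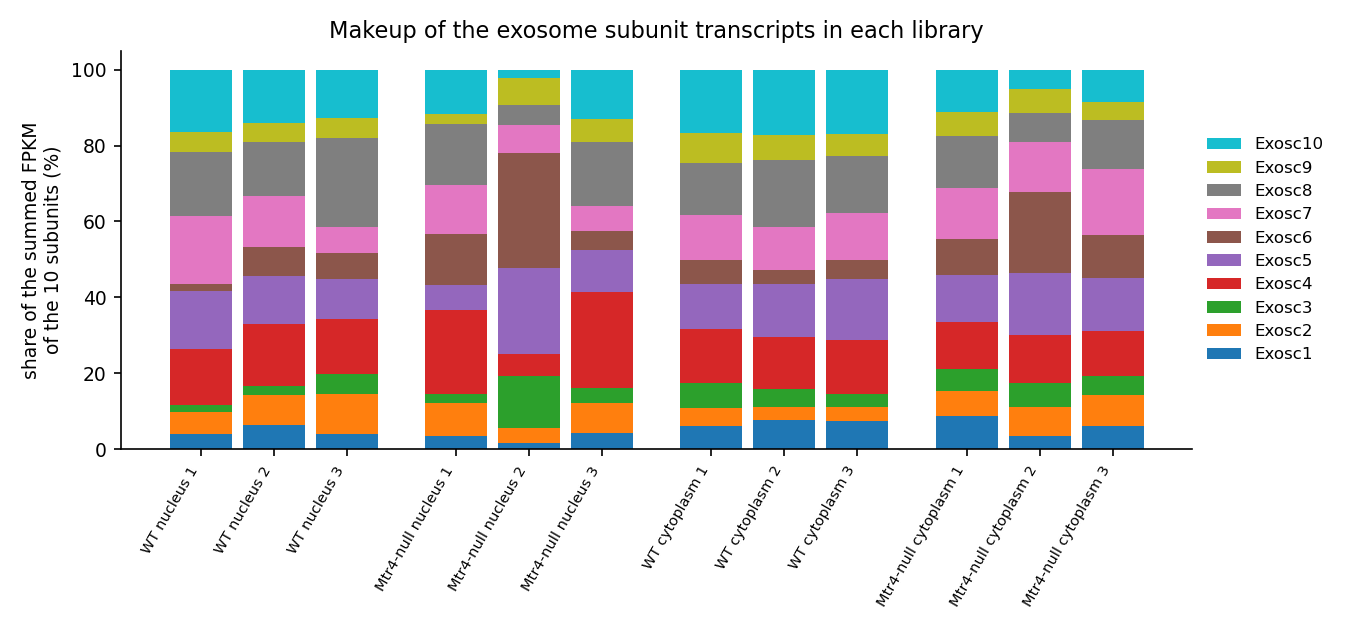
Share of each subunit (colour) in the summed FPKM of the 10 subunits (vertical, percent) in each of the 12 libraries (horizontal). The share of Exosc10 is close to 16.9% in the 3 WT cytoplasms and between 5.02% and 11.2% in the Mtr4-null cytoplasms. Among the cytoplasms the share of Exosc6 is widest in Mtr4-null replicate 2, at 21.4%. Over all 12 libraries it is widest in replicate 2 of the nuclei labelled Mtr4-null, at 30.3%.

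Base composition differed between the libraries and moved with the genotype. Genes of at least 5 FPKM were put into 5 equal classes by the GC content of their transcript. In the class of lowest GC, the Mtr4-null cytoplasms were at a median of -0.12, -0.43 and -0.26 (log2) against the WT mean, and in the class of highest GC at 0.19, 0.19 and 0.11. The WT cytoplasms stayed between -0.08 and 0.07 in all 5 classes. Exosc6, encoded by 1 exon, had the highest transcript GC content of the family, 64.9%, and the other 9 lay between 44.5% (Exosc9) and 55.1% (Exosc5). With values centred on genes of like GC content, in the fit of the cytoplasms alone, the differences were 1.28 for Exosc6 (limma, adjusted p = 0.044), 1.04 for Exosc2 (adjusted p = 0.015), -0.94 for Exosc10 (adjusted p = 0.0053) and 0.47 for Exosc7 (adjusted p = 0.060). Exosc6 was then called and Exosc7 was not. With these values 3 members were called, beside 25.4% of the genes with a GC value, in either direction. This setting was chosen after the data were seen.

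**Figure D5:**
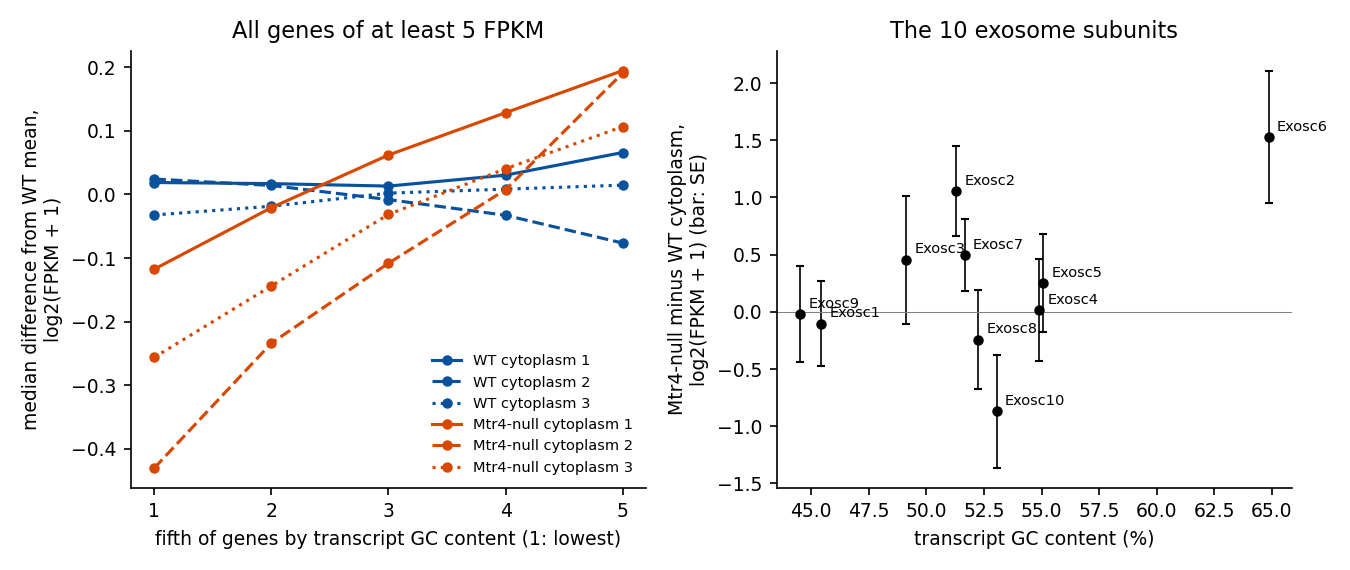
Left, median difference of each cytoplasm library from the WT mean on the log2(FPKM + 1) scale (vertical) in 5 classes of genes of rising transcript GC content (horizontal), and right, the Mtr4-null minus WT cytoplasm difference of each subunit (vertical, bars: SE) against its transcript GC content (horizontal, percent). The Mtr4-null lines climb from between -0.43 and -0.12 to between 0.11 and 0.19, and Exosc6 lies alone at 64.9% GC.

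The 10 genes are spread over the genome. In GRCm38, Exosc3 and Exosc10 lie on chromosome 4, with 4 and 25 exons, and Exosc8 and Exosc9 on chromosome 3, with 11 and 12 exons. Exosc2 lies on chromosome 2, Exosc5 on chromosome 7, Exosc6 on chromosome 8, Exosc7 on chromosome 9, Exosc4 on chromosome 15 and Exosc1 on chromosome 19. Some readings can be shared with neighbouring genes, since the sources used here do not say whether counting used strand. In the GENCODE annotation Exosc6 overlaps Aars on the same strand, and on the other strand Exosc3 overlaps Dcaf10, Exosc4 Oplah, Exosc5 Tmem91, Exosc8 Supt20 and Exosc9 Ccna2. Aars, which encodes an alanine tRNA synthetase, was at 19.4 ± 1.22 FPKM in the WT and 17.5 ± 2.08 FPKM in the Mtr4-null cytoplasms, where its libraries overlapped. Exosc2, Exosc3 and Exosc10 also overlap noncoding entries or pseudogenes, and Exosc1 and Exosc7 overlap no other gene.

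The sequences upstream of the 3 members that were furthest apart between the cytoplasms are shown so that known elements in them can be compared. They are the 250 bases before the annotated start from RefSeq (GRCm38.p6), read 5′ to 3′ on the strand of the gene, and 8 of the 10 genes were matched (Exosc4 and Exosc9 were not). Capitals mark letters of a searched motif on either strand. Exosc2 lies at chr2:31670465-31670714, Exosc6 at chr8:111056089-111056338 and Exosc10 at chr4:148558169-148558418, the first of its 2 annotated starts.
Exosc2: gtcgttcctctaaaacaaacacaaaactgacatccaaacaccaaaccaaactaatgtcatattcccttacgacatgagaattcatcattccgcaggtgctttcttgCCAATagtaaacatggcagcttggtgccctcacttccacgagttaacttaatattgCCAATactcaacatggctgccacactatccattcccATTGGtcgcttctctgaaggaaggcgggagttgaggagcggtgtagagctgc
Exosc6: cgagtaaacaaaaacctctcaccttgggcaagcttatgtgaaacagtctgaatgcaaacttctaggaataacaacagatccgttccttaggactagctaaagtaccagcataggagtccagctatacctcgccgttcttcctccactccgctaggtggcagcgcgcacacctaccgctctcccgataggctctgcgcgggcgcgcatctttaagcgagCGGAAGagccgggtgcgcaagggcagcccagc
Exosc10: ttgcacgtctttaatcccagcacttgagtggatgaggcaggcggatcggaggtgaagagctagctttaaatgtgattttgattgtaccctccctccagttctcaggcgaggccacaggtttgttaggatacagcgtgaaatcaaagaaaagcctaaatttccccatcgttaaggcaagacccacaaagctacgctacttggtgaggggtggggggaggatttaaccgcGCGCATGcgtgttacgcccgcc
In the Exosc2 window the capitals are CCAAT boxes (CCAAT), 3 in number. In the Exosc6 window they are an ETS core (CGGAAG) and in the Exosc10 window an element of the NRF1 type (GCGCATG), 1 each. Of all 32851 promoter windows of this length, 33.8% held CCAAT, 13.6% CGGAAG and 3.24% GCGCATG. No motif searched was common to the 3 windows shown. The window before the second start of Exosc10 held an ETS core, as that of Exosc6 did, and 3 CREB cores (TGACG, in 17.8% of all windows). Both strands were searched, and a TATA box (TATAAA, in 12.4% of all windows) was found in 0 of the 8 genes. A match is a description of letters and not a bound site.

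In the nucleus, no subunit differed between the genotypes beyond the threshold. With 4 groups, limma called 0 of 10, against 2.26% of all genes tested, and 2 had an unadjusted p below 0.05, beside 2413 of 13157 genes. A fit of the nuclei alone called 0 of 10, beside only 0.0380% of all genes, so its lack of calls says little about the subunits. In that fit 1 subunit had an unadjusted p below 0.05, beside 1025 of 13157 genes. The libraries were apart for Exosc6 alone, 1 of 10, against 12.9% of all genes. The summed FPKM of the family was 89.2, 72.9 and 109.9 in the WT nuclei and 118.5, 153.7 and 192.2 in the nuclei labelled Mtr4-null, with no overlap. Whole libraries shifted too. Against the WT mean, the 5 GC classes of genes had medians of 0.81 to 1.07 (log2) in replicate 3 labelled Mtr4-null. They had -0.09 to 0.25 in replicate 1 and -1.02 to 0.13 in replicate 2, where Exosc6 alone made up 30.3% of the family. The part of these shifts in the sum was not tested. The sum of 6 noncoding RNAs known to stay in the nucleus was 401 to 811 FPKM across the WT nuclei and 136 to 360 FPKM across those labelled Mtr4-null, and its part in the family's values was not tested.

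Exosc6 measured 1.65, 5.56 and 7.60 FPKM across the WT nuclei versus 15.7, 46.5 and 9.17 FPKM across the nuclei labelled Mtr4-null. Every one of the latter lay above every WT nucleus, including replicate 1, whose Skiv2l2 level went against its label. The difference was 1.92 ± 0.58 (limma, adjusted p = 0.089). Against the WT mean, Exosc6 was at 1.66, 3.16 and 0.94 (log2) in replicates 1, 2 and 3 labelled Mtr4-null. The high-GC class of genes was at 0.25, 0.13 and 1.07 there, so in replicate 3 Exosc6 rose no more than that class. In replicate 2, the library with the highest Exosc6, the low-GC class was at -1.02. With GC-centred values the difference of Exosc6 between the genotypes was 1.51 (limma, adjusted p = 0.18).

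Exosc3, in the cap, measured 1.51, 1.83 and 5.82 FPKM across the WT nuclei versus 2.98, 21.1 and 7.70 FPKM across the nuclei labelled Mtr4-null. The groups overlapped and replicate 2 set the mean, with a difference of 1.33 ± 0.56 (limma, adjusted p = 0.22). Exosc10 was at 14.7, 10.2 and 14.1 FPKM against 13.8, 3.27 and 25.0 FPKM, and its 3 Mtr4-null libraries lay near, below and above the WT nuclei. The difference was -0.23 ± 0.50 (limma, adjusted p = 0.86). Exosc4 (26.3, 8.89 and 48.3 FPKM), Exosc5 (7.79, 34.8 and 21.6 FPKM) and Exosc9 (3.16, 11.2 and 11.6 FPKM) also differed among the nuclei labelled Mtr4-null, with log2 differences of 0.71, 0.64 and 0.63, and the remaining 4 members had differences from 0.10 (Exosc8) to 0.41 (Exosc2).

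Calls in the nucleus depended on single libraries labelled Mtr4-null. Without replicate 1, Exosc3 was called (1.93; limma, adjusted p = 0.035), beside 10.2% of all genes. Without replicate 2, which leaves replicates 1 and 3, Exosc4 was called (1.34; limma, adjusted p = 0.034), beside 3.49% of all genes. Without replicate 3, 0 members were called, beside 2.97%, and without WT nucleus replicate 2, 0, beside 3.37%. Without replicates 1 and 3 together, which leaves replicate 2 as the only nucleus labelled Mtr4-null and takes the spread from the other groups, 5 members were called, beside 30.1% of all genes. Exosc3 (2.60), Exosc5 (1.53), Exosc6 (3.16) and Exosc9 (1.13) were then higher and Exosc10 (-1.70) lower, with limma adjusted p-values from 0.0037 to 0.034. These 5 values are those of 1 library, the shallowest of the 12, at 0.129 times the depth of WT cytoplasm replicate 1.

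The genotype difference in the nucleus was also set against that in the cytoplasm with an interaction term in the fit of 4 groups. It called 0 of 10 subunits, against 0.122% of all genes tested. No subunit had an unadjusted p below 0.05, beside 1321 of 13157 genes. The smallest adjusted p of a member was 0.78 (limma, Exosc2, -0.64 ± 0.55). The interval around each of these values is wide, so the test does not show that the effects are alike. For Exosc10 the interaction was 0.64 ± 0.70.

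In the rest of the pathway the genotype comparison in the cytoplasm, with its 1.88% of all genes called, called Skiv2l2, which fell by 3.68 ± 0.57 (limma, adjusted p = 0.0048), and Isg20, which measured 4.65, 3.73 and 4.19 FPKM across the WT cytoplasms versus 0.37 and 0.44 FPKM in Mtr4-null replicates 1 and 3, with replicate 2 listed at 0 (-2.05 ± 0.43; limma, adjusted p = 0.024). They were 1 of 5 catalytic subunits and cofactors and 1 of 9 other exonucleases, and 0 of 15 adaptors and 0 of 4 SKI complex genes were called. An unadjusted p below 0.05 was found for 2 adaptors and 0 SKI complex genes, beside 1663 of 13157 genes. With the cytoplasms alone, a fit that called 23.2% of all genes, Dis3l (-1.10) and Xrn1 (-0.85), the main 5′ to 3′ exonuclease of the cytoplasm, were also lower. Dis3l measured 72.0, 80.2 and 78.9 FPKM across the WT versus 42.5, 28.8 and 36.3 FPKM in the Mtr4-null cytoplasms. Higher in that fit were the adaptors Zcchc7 (0.88), Zfc3h1 (0.90), Srrt (0.996), Ncbp2 (0.51) and Gltscr2 (0.58), and Skiv2l (0.65), the helicase of the SKI complex. Dis3 measured 2.94, 2.39 and 2.28 FPKM across the Mtr4-null cytoplasms, with a difference of -0.05. In the nucleus, 0 of the 33 genes in the 4 lists was called, beside 2.26% of all genes. An unadjusted p below 0.05 was found there for 3 of them, beside 2413 of 13157 genes. The most abundant members of the adaptors, SKI complex and other exonucleases were Papd7, Hbs1l and Parn, with mean FPKM over the 12 libraries of 111, 31.1 and 16.6. In the Mtr4-null cytoplasms Rexo1 (22.1 FPKM) was above Parn (20.7 FPKM).

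The members differed in how closely they followed the family. Each profile was centred on its own mean over the 12 libraries on the log2(FPKM + 1) scale. The root mean square difference from the mean profile of the members was 0.33 for Exosc9, the nearest, 0.64 for Exosc3, 0.72 for Exosc10 and 0.97 for Exosc6, the furthest. The mean profile includes each member itself, which lowers the values of members beside those of other genes. The median over all genes tested was 0.60. The genes outside the family with the most similar profile were Sp110 (0.11), Phactr3 (0.13) and Srprb (0.13). Srprb, which encodes a subunit of the signal recognition particle receptor, measured 15.4, 12.4 and 17.6 FPKM across the WT nuclei versus 41.0, 37.3 and 38.7 FPKM across the WT cytoplasms. The comparisons above share libraries, since the WT cytoplasms enter both the genotype and the compartment comparison, so their values for a member are not independent.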

How the data were processed

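The deposited table holds FPKM made by the authors from paired reads of 150 bases; per the submitters' processing notes TopHat2 2.1.1, Cufflinks 2.2.1 and the build mm9 were used; annotation, strandedness and what each tool did: not given in the sources used here. Columns were matched to samples by title, and no pair of libraries held identical values. FPKM gave no read numbers, so absolute depth, intervals and detection limits are unknown; relative depth came from values below 0.3 FPKM. Values were analysed as log2(FPKM + 1) for genes reaching 1 FPKM in 3 or more libraries, in 1 limma fit (limma 3.58.1, R 4.3.3) with a mean for each of 4 groups, a variance trend and two-sided p-values adjusted by Benjamini and Hochberg over 13157 genes, called below 0.05. The fits were run on simulated data with separate spreads for nuclei and cytoplasms and with changes placed only in the Mtr4-null cytoplasm. There the fit of 4 groups called fewer of the changed genes than that of the cytoplasms alone. That setting favours the fit of the cytoplasms alone, so the outcome does not show which calls are right. SDs are over 3 libraries and SEs are from limma. Named genes were all 10 members, called genes of 4 pathway lists, otherwise the most abundant of each list, Skiv2l2, Dis3 and the 3 genes nearest in pattern; Aars was added to these after its values were seen. The adaptor Nrde2 was not matched. GC content came from GENCODE transcripts of GRCm38, for 98.5% of genes tested. Members and lists were chosen with earlier results of these data known. Alternatives covered pseudocount, filter, scaling, groups fitted alone, library weights, replicate block and left-out libraries; GC-centred values and combinations of the fit of groups alone with other settings were added after seeing the data.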

Additional observations from a re-analysis of the deposited data

How the results depend on the processing

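The labels do not say whether replicate numbers pair the libraries, and correlations with 3 libraries per group cannot decide it. Of 18 same-numbered pairs, many of them across genotypes, 3 had deviations correlated above 0.1 (range -0.16 to 0.30), and 6 correlated best with their own number. Nucleus and cytoplasm of the same number had r of 0.058, 0.30 and 0.12 in Mtr4-null and of -0.13, -0.012 and -0.042 in WT. Percentages in this section are shares of all genes called in either direction under the same setting. With a replicate block, members called lower in the Mtr4-null nucleus went from 2 (32.2%) to 4 (42.1%), and with the Mtr4-null groups alone to 0 (7.46%). In the cytoplasms alone the block left 1 genotype call (11.3%) in place of 3 (23.2%). Members called between genotypes in the cytoplasm (0) were 3 in the groups alone (23.2%) and 3 with that and GC-centring (25.4%). They were 2 with that and median-of-ratios (25.7%) or quantile scaling (23.9%), and 4 with library weights (34.9%). Leaving out nuclei 1 and 3 labelled Mtr4-null leaves 1 library in that group, so only differences are given for it below. Leaving out single libraries gave 0 to 1 in the nucleus (0.0304% to 10.2%) and 0 to 3 in the cytoplasm (0.426% to 23.7%). For compartments it gave 4 to 9 in WT (43.5% to 65.4%), up to 10 in WT alone (69.0%) and 0 to 8 in Mtr4-null (0.327% to 64.8%). For WT compartments (8, beside 57.1%), the 3 scalings and GC-centring gave 1 (24.8% to 42.9%). With WT alone they gave 4 (median-of-ratios, 39.5%), 3 (quantile, 33.6%) and 5 (GC, 52.3%). For Mtr4-null compartments (2, beside 32.2%), a filter of 5 FPKM gave 4 (50.1%), library weights 5 (50.3%) and GC-centring 1 (10.2%). The scalings gave 0 (3.70% to 5.03%), as did the groups alone (0.935%). The interaction called 0 under all 24 alternatives. Calls over all genes ranged from 4 to 3966 in the nucleus (298), 56 to 4597 in the cytoplasm (248), 3262 to 9402 between WT compartments, 43 to 8522 between Mtr4-null compartments and 5 to 1450 for the interaction (16). Signs turned only for values that were not called as reported, except Exosc8 between WT compartments (0.012 with quantile scaling, 0.014 in WT alone). Between WT compartments Exosc2 became 0.59 (0.57 in WT alone) with median-of-ratios, 0.36 (0.35) with quantile, 0.44 without the top 100 and 0.43 (0.44) with GC-centring. In the nuclear genotype comparison Exosc8 became -0.066 (-0.0021 alone) and -0.12 (-0.11) with those scalings, -0.13 (-0.080) with GC-centring, -0.19 without WT nucleus 2, -0.35 without Mtr4-null nucleus 3 (leave-one-out range -0.35 to 0.61) and -0.93 without nuclei 1 and 3; Exosc1 became -0.061 (-0.0056) with median-of-ratios, -0.25 without nucleus 3 (range -0.25 to 0.41) and -0.51 without nuclei 1 and 3, where Exosc2 was -0.23 and Exosc4 -0.55; Exosc5 was -0.038 with weights and Exosc10 0.50 without nucleus 2 (range -0.80 to 0.50). In the cytoplasmic genotype comparison Exosc1 became 0.018 with weights, 0.042 (0.013 alone) with GC-centring and 0.11 without Mtr4-null 2 (range -0.33 to 0.11); Exosc4 -0.041, -0.11 (-0.087) and -0.14 in the same settings, and -0.019 and -0.0068 without WT 2 and 3 (range -0.14 to 0.10); Exosc9 0.0035 with median-of-ratios, 0.058 without the top 100, 0.12 (0.093) with GC-centring, 0.12 without WT 1 and 0.15 without Mtr4-null 3 (range -0.21 to 0.15). Between Mtr4-null compartments Exosc4 became 0.28 (0.28) with median-of-ratios, 0.33 (0.33) with quantile, 0.17 without the top 100, 0.19 (0.17) with GC-centring and 0.016 without nucleus 2 (range -1.14 to 0.016); Exosc8 0.031 (0.031) and 0.079 (0.082) with the first scalings; and Exosc3 0.35 and Exosc6 0.30 without nuclei 1 and 3. The cause of these changes was not tested. Depth is lower in nuclei, so their low values are least precise.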
